A study of Mus musculus with 6 samples.

Results

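Short stretches of the mouse genome that are rich in CpG and yet heavily methylated in male germ cells are described here. The genome was divided into 500 bp tiles, and cytosines of CpG sites listed in all 6 libraries with at least 10 reads in each were counted on the autosomes. A tile with at least 20 such cytosines is called dense. The members are the dense tiles whose methylation level, the summed methylated reads over the summed coverage, averaged at least 80% over the 3 Control libraries. There were 1852 members among 24433 dense tiles, or 7.58%, and they held 45511 cytosines. Because Control values chose the members, their high Control level and their difference from the other dense tiles in level are descriptions and were not tested.

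The DNA came from germ cells of male mice and was assayed by reduced representation bisulfite sequencing (RRBS), in which DNA is cut at CCGG sites so that CpG-rich fragments are enriched, and bisulfite turns unmethylated cytosines into bases read as T. There were 3 Control libraries and 3 from mice that had undergone chronic social defeat stress (CSDS), a model in which a male is repeatedly attacked by an aggressive male. The labels give the same cell source and kits for both groups and no strain, genotype, age, germ cell stage, purity or length of stress, and they do not say whether the replicates of a group were separate animals or pools. The p-values therefore measure only the spread between these libraries, which may be technical.

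The 6 libraries listed 2420308 to 3156788 cytosines, with a median coverage of 44 to 50 reads. Over 27 mitochondrial CpG cytosines, the median share read as C was 8.84% to 10.04% in Control, 8.50% in CSDS replicate 1, and 4.41% and 4.53% in CSDS replicates 2 and 3. The last 2 libraries thus stood apart from the other 4. As a check of the cell type, the ends of 7 maternally methylated imprinted genes, which are unmethylated in sperm, had a median Control level of 17.8%, between 11.1% and 26.6%. The ends of 22 germline-specific genes had a median of 22.4% and those of 11 genes of spermatogenic stages one of 18.8%. The ends of 9 Sertoli cell marker genes ran from 11.6% to 95.4% with a median of 19.7%. Those of 4 Leydig cell markers ran from 16.6% to 96.0% with a median of 71.8%, and those of 4 immune cell markers from 16.1% to 94.96% with a median of 94.5%. The part of other cell types in the members' levels was not tested.

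In mammals most CpG sites are methylated, and the methylated form is lost over evolutionary time by mutation, so CpG is rare in most of the genome. CpG islands, the dense exceptions, are usually kept free of methylation and often hold gene starts. Dense sequence that carries methylation is known from gene bodies, transposable elements and imprinted control regions, and in male germ cells the pattern is laid down before birth by the DNMT3 enzymes and copied at each division by DNMT1.

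Few members lay at a listed gene start, and 12 listed promoters of 11 genes overlapped one. Each promoter is the window from 250 bases before to 50 bases after a transcription start in RefSeq's GRCm38.p6 table. The 250 upstream bases of 4 promoters are shown, 5′ to 3′ on the strand of the gene. CpG-poor starts that overlap a member can thus be compared with a CpG-rich unmethylated one. Arhgef10l is at chr4:140665906-140666155 on the minus strand. The inner start of Arhgef2, which encodes a microtubule-bound protein, is at chr3:88629223-88629472 on the plus strand and overlaps a member. The outer start of the same gene is at chr3:88620909-88621158 on the plus strand and overlaps a dense tile under 20%. Prm1, the gene of protamine 1 that packs sperm DNA, is at chr16:10796824-10797073 on the minus strand. Capitals mark CpG sites with a cytosine measured in all 6 libraries.
Arhgef10l: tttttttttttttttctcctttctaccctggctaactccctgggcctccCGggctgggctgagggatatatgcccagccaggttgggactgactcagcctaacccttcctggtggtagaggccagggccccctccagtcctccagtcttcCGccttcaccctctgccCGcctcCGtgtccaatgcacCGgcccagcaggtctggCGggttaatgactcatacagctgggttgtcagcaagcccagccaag
Arhgef2 inner start: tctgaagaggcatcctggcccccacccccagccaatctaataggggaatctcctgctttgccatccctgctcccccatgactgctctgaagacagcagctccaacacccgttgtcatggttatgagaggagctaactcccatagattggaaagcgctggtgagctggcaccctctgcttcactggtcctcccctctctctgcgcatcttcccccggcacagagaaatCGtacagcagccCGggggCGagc
Arhgef2 outer start: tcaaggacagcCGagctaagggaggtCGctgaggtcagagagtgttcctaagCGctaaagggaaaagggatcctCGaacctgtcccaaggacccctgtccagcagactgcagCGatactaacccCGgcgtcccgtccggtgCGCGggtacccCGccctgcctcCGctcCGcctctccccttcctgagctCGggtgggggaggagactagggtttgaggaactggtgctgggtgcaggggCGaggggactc
Prm1: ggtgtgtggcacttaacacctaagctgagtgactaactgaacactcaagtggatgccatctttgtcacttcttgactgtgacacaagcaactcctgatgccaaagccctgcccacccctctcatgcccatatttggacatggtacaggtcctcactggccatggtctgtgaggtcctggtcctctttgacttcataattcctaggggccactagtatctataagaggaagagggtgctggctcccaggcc

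The 250 bases before the inner Arhgef2 start held 7 CpG sites, 3 of them measured, and those before the outer start held 16, 13 of them measured. Over the 7 measured cytosines of the inner window the mean level in Control was 93.5%, 96.3% and 94.8%, and in CSDS it was 96.9%, 91.1% and 95.3%. Over the 41 measured cytosines of the outer window it was 10.1%, 10.03% and 12.8% in Control and 11.0%, 5.96% and 8.52% in CSDS. The inner and outer starts of this gene thus stood far apart in every library, and the groups overlapped at both.

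At Arhgef10l the window held 14 measured cytosines, which averaged 92.7%, 94.6% and 93.5% in Control and 83.5%, 88.0% and 86.8% in CSDS. All 14 were lower in the CSDS mean. This window was singled out after its values were seen. The member tile there, with 22 cytosines, stood at 94.0%, 94.4% and 94.4% in Control and at 90.3%, 92.0% and 92.2% in CSDS. The groups did not overlap, and the tile's adjusted p was 0.322 in the moderated quasi-binomial F test (limma).

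The Prm1 sequence holds no CpG at all, and its member tile (chr16:10796501-10797000, 21 cytosines) is measured on the gene's side of the start. No cytosine in the promoter window of Prm1 was measured, so the level of the start itself is not known. The levels of the tile were 88.1%, 92.1% and 92.3% in Control and 91.6%, 79.1% and 90.4% in CSDS. Replicate 2 of CSDS was the low library, and without it the difference from Control turned from -3.86 to 0.122 percentage points.

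The 12 promoters that overlapped a member had a median of 7.5 CpG sites in 300 bases, against 26 in the 9769 promoters that overlapped a dense tile under 20% and 7 in all 31396 promoters of the table. Their median ratio of observed to expected CpG was 0.339, against 0.834 and 0.389. Motifs were searched as letters on both strands. GGGCGG, the GC box bound by Sp1-type factors, was found in 8.33% of the 12, in 75.0% of those at unmethylated dense tiles and in 36.0% of all. TGACG, the core of the cyclic AMP response element, was found in 3 of the 12, in 33.1% and in 21.0%. TATAAA, 1 form of the TATA box, was found in none of the 12, in 4.75% and in 13.6%. Only these exact letters were counted, so near forms such as the tataag of the Prm1 sequence were not. Overlaps between motifs were not removed, and these shares describe 300-base windows only. The windows of Fnbp1, Tmem184a and Prm1 held no measured cytosine, and the only GC box was at Tmem184a. Both windows of Arhgef10l hold the same 14 measured cytosines. The shares are thus those of promoters that overlap a member, not of promoters each measured as methylated.

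Dense tiles were concentrated at both ends of the scale of Control levels. Of the 24433, 21402 (87.6%) were under 20%, 1852 were members, and 1179 lay between. The sparsest 10-point band was that from 50% to 60%, with 78 tiles, against 1421 tiles at 90% or more.

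**Figure D1:**
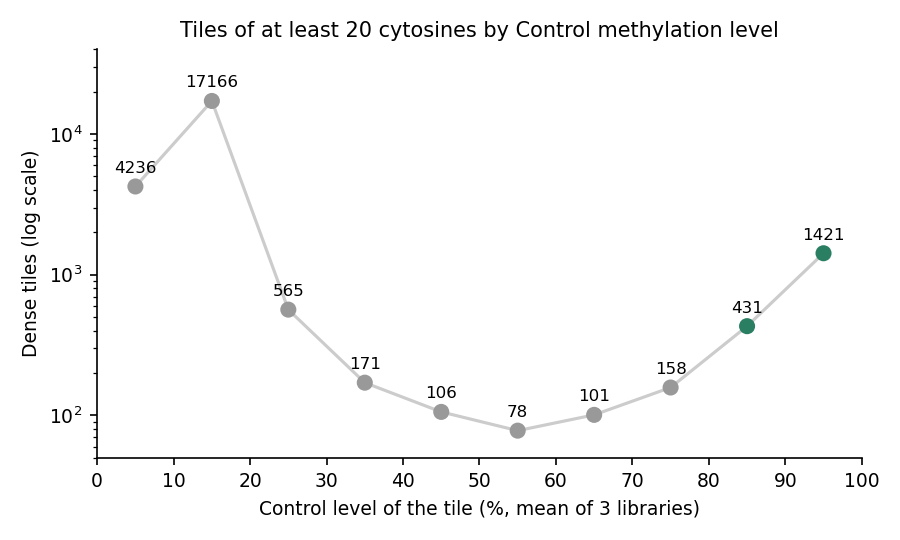
Number of dense tiles (log axis) in each 10-point band of Control level, the mean of 3 libraries; points are counts over tiles, and green points are the members. The counts are highest from 10% to 20%, at 17166, lowest from 50% to 60%, at 78, and rise again to 1421 at 90% or more.

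The share of tiles at 80% or more fell with the number of cytosines. It was 77.7% among tiles of 3 to 4 cytosines, 39.9% at 15 to 19, 24.4% at 20 to 24, 6.28% at 30 to 34 and 0.393% at 40 or more. Members accordingly sat at the lower edge of density, with a median of 23 cytosines, and 1401 of the 1852 held 20 to 26. The other dense tiles had a median of 41. Over the stretch from the first to the last measured cytosine, members had a median of 9.08 cytosines per 100 bp and dense tiles under 20% had 16.5.

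**Figure D2:**
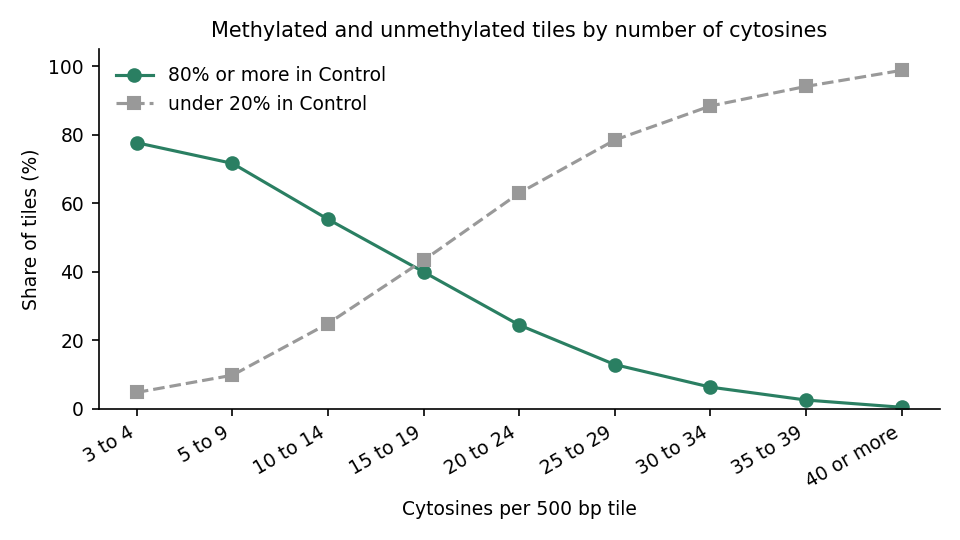
Share of tiles (percent) at 80% or more and under 20% in Control, by the number of measured cytosines in the 500 bp tile. The share at 80% or more declines from 77.7% to 0.393% and that under 20% rises from 4.73% to 98.8%.

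The most cytosines in a member, 69, were found within Scaf1, which encodes a splicing-related factor, at chr7:45007501-45008000. Its levels were 80.8%, 79.9% and 82.3% in Control and 79.3%, 75.4% and 77.7% in CSDS. Near Olfr1318, an olfactory receptor gene, a member of 61 cytosines stood at 88.1%, 88.3% and 88.8% in Control and at 87.1%, 88.3% and 83.8% in CSDS. Both were below the member mean in all 6 libraries. The next were more fully methylated. Speg, a kinase gene of striated muscle (60 cytosines), averaged 96.5% ± 0.585 (SD, n = 3) in Control and 95.7% ± 0.821 in CSDS. The kinase gene Snrk (57 cytosines) averaged 97.0% ± 0.101 and 97.3% ± 0.561. Prickle1, a planar cell polarity gene (54 cytosines), averaged 96.9% ± 0.231 and 96.1% ± 0.373.

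The word "fully" fits the members loosely. Of the 1852, 1421 (76.7%) reached 90% and 690 (37.3%) reached 95%. Just inside the limit were tiles within Skint6 at 80.2%, near 1700008P02Rik at 80.3% and near Crlf2 at 80.3%, and just outside it were tiles near Zic1 at 79.8%, within Cyp2c66 at 79.95% and near Cobl at 79.96%. In single libraries, between 1828 and 1832 members were at 80% or more in Control and between 1767 and 1806 in CSDS, and 1718 (92.8%) were so in all 6. Depth was a median of 1300 to 1519 reads per member and library, and across members the levels of any 2 libraries had a Pearson r of 0.816 to 0.875, a description over tiles that share those libraries.

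Single cytosines varied within the limits that a tile mean of at least 80% leaves. The SD over the cytosines of a member had a median of 4.46 points and reached 26.9. Of the 45511 cytosines, 93.7% were at 80% or more in Control and 68 (0.149%) were under 50%. Every cytosine was at 80% or more in 1076 members (58.1%), and the other members held at least 1 below it. The 19439 CpG sites measured on both strands differed between strands by a median of 3.09 percentage points. Only 10 cytosines in 7 members were under 20%. At chr12:5059312, in a tile at 92.5%, the plus strand cytosine read 0.694% and its minus strand partner 11.8% in Control. At chr17:69323564, in a tile at 91.8%, the plus strand cytosine read 6.59% while its partner read 98.9%. Cytosines of the member tiles that passed 10 reads in some libraries only, 7255 in number, averaged 90.8% to 92.3% per library.

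Methylation extended past the tile edges. Of 916 adjoining tiles with at least 3 cytosines, 869 (94.9%) were at 80% or more and 3 were under 20%. Among all tiles of 3 to 4 and of 5 to 9 cytosines, 77.7% and 71.6% were at 80% or more. Beside dense tiles under 20%, 0.131% of tiles on the left and 0.154% on the right were at 80% or more. Members stood alone in 1762 places, in pairs in 42 and in runs of 3 in 2, within Shank2 and near Atad2b. Among adjoining tiles with at least 10 cytosines, the largest step was at Sirt7, the gene of a nuclear sirtuin deacylase, where a member at 93.3% adjoined a tile of 18 cytosines at 13.8%. At Dsp, the gene of desmoplakin, a member at 92.3% adjoined a tile of 28 cytosines at 31.6%. Foxo3 (80.7% beside 39.9%) and Tnrc18 (80.3% beside 42.7%) had the next largest steps to such a tile.

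Members lay away from gene starts and towards the ends of genes. Of 1802 members on chromosomes covered by the promoter table, 11 (0.610%) overlapped a promoter window, against 45.1% of dense tiles under 20%. Among tiles of 20 to 24 cytosines alone, the shares were 0.598% and 34.95%. The median distance to the nearest listed start was 28835 bp for members and 415.5 bp for dense tiles under 20%. For 437 members (24.3%) it was over 100 kb. The promoter table lacks some genes. A member within Plec, a gene of 60405 bp, lay 779870.5 bp from the nearest listed start. Distances are thus upper limits and promoter shares lower limits. By the gene table, 4.70% of members and 72.5% of dense tiles under 20% lay within 1 kb of an end of a protein-coding gene. These shares are counts over the tiles of 1 genome and carry no test.

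Of the members, 1022 (55.2%) overlapped a protein-coding gene, 107 (5.78%) overlapped only a non-coding gene or pseudogene, and 723 (39.04%) overlapped no gene. For dense tiles under 20% the share in protein-coding genes was 88.0% and that in no gene 7.504%. Genes holding a member were long, with a median of 60065 bp over members against 32665.5 bp over dense tiles under 20%. For 798 members the direction of the gene was known. Of these, 38.6% lay in the last of 5 equal stretches of the gene and 8.77% in the first, against 3.54% and 82.9% of 13856 dense tiles under 20%. The gene table used has no exons, so exons, introns and untranslated regions were not told apart.

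**Figure D3:**
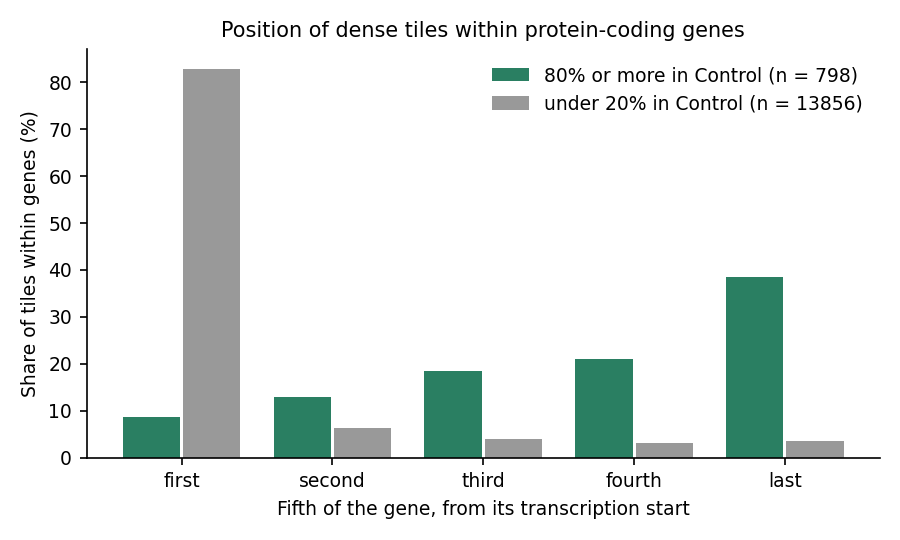
Share of dense tiles (percent) in 5 equal stretches of the protein-coding gene they lie in, counted from the transcription start; green bars are the 798 members and grey bars the 13856 dense tiles under 20% with a known gene direction. Members rise from 8.77% in the first to 38.6% in the last, and the unmethylated tiles are 82.9% in the first.

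Members in protein-coding genes were more methylated than the others in every library. Their Control mean was 94.0% ± 0.149 and their CSDS mean 93.2% ± 0.270 (SD, n = 3). Members in no gene averaged 90.8% ± 0.0263 and 89.8% ± 0.469, and those in a non-coding gene or pseudogene only averaged 90.5% ± 0.442 and 89.4% ± 0.663.

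Members occurred on every autosome, as 5.31% of the dense tiles of chromosome 19 at the lowest and 11.2% of those of chromosome 4 at the highest, where 201 members lay. Of 500 windows of 5 Mb with a dense tile, 457 held at least 1 member. The fullest, with 23, ran from 120 to 125 Mb of chromosome 8.

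Members touched 882 protein-coding genes, and 685 of these (77.7%) also held a dense tile under 20%. Only 22 genes held 3 or more. Plec, the gene of the cytoskeletal linker plectin, held 7 members among its 9 dense tiles. Their Control levels ran from 82.8% to 97.9%, and the 2 other dense tiles of the gene averaged 11.5%. The mean of the 7 was 95.5%, 95.2% and 94.8% in Control and 94.8%, 94.6% and 95.2% in CSDS, which overlapped.

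Gse1, Bahcc1 and Prdm16 held 5 members each. Bahcc1 encodes a chromatin protein and Prdm16 a zinc finger regulator of brown fat and blood stem cells. At Gse1 the mean of the members was 92.1%, 93.0% and 93.7% in Control and 91.9%, 90.3% and 91.8% in CSDS. At Prdm16 it was 93.1%, 92.7% and 92.8% in Control and 91.2%, 90.3% and 91.3% in CSDS. The groups were apart in both genes, as they were in the mean of all members. Of the 5 Prdm16 members, 2 were lower in CSDS, at 89.2% and 82.9% and at 93.6% and 89.2% in Control and CSDS. Their adjusted p was 0.179 and 0.241 in the moderated quasi-binomial F test (limma). The 3 higher ones went from 93.2% to 93.8%, from 95.7% to 96.0% and from 92.7% to 92.9%. The share of all genes with groups apart was not counted. At Bahcc1 the means of 90.3% ± 1.21 and 89.1% ± 0.979 overlapped.

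Shank2, which encodes a scaffold of excitatory synapses, and Cux2, a homeobox gene of upper-layer neurons, held 4 each. The member of Shank2 at chr7:144284501-144285000 stood at 84.5%, 85.4% and 81.1% in Control and at 77.0%, 78.0% and 76.7% in CSDS. The 3 adjoining members further along the gene lay between 91.7% and 97.4% in every library, so the difference was seen in 1 of the 4. At the Cux2 member at chr5:121914001-121914500 the levels were 91.2%, 92.3% and 91.9% in Control and 88.3%, 88.3% and 88.8% in CSDS. The other 3 Cux2 members differed by -0.882, -0.107 and 1.16 points, with groups that overlapped. The groups did not overlap at the 2 tiles given in full, and the adjusted p in the moderated quasi-binomial F test (limma) was 0.179 at Shank2 and 0.184 at Cux2.

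The members among the dense tiles of gene families are given beside 5.03% (1145 of 22775) for dense tiles within 1 kb of any gene. None of 100 dense tiles at Hox genes, which pattern the body axis, was a member. Nor was any of 19 at clustered protocadherins, 10 at paternally methylated imprinted genes or 20 at stress hormone axis genes. Sets of 10 to 20 tiles are too small to be set apart from a share of 5.03%. The 10 tiles came from 4 of 8 listed imprinted genes. Imprint control regions over 1 kb from a listed gene were not counted, so their level is not shown by this count. Forkhead transcription factor genes had 3 of 151. Zinc finger genes named Zfp had 29 of 478 (6.07%), solute carriers 18 of 416 (4.33%) and potassium channels 7 of 158 (4.43%), all near the share for any gene.

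Shares of the remaining lists rest on small numbers. Scaffold genes of the Shank, Plec, Ank and spectrin families had 13 of 59 (22.0%), of which 7 are those of Plec and 4 those of Shank2. Collagens had 9 of 52, kinesins, dyneins and myosins 15 of 125, laminins 3 of 13, keratins 4 of 11 and Notch receptors 2 of 11. Calcium channel subunits had 7 of 75 and the ADAM and ADAMTS proteases 6 of 72. Genes of spermatogenic stages had 2 of 17, germline-specific genes 2 of 19, the DNA methylation machinery 3 of 30, maternally methylated imprints 3 of 41 and Sertoli markers 1 of 21. Mucin genes and immune marker genes had no dense tile, and olfactory receptor genes had 2 and Leydig markers 1, none of them a member. These are counts of a chosen set of lists, and none was tested against other genes.

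Of 49 tiles named from these lists, 33 were at 95% or more in Control, 9 from 90% to 95% and 7 under 90%. Kif26a, a kinesin-family gene, stood at 97.5% ± 0.551 in Control and 96.6% ± 1.12 in CSDS over 50 cytosines (SD, n = 3). Lamb2, a laminin chain gene, stood at 97.1% ± 0.460 and 96.4% ± 1.503, and Col6a2, a collagen VI gene, at 97.0% ± 1.02 and 97.5% ± 0.799. Notch1, a receptor of cell-cell signalling, stood at 96.2% ± 1.02 and 94.8% ± 0.206. The forkhead gene Foxo3, active in stem cell maintenance, was the lowest of the 49 at 80.7% ± 3.28 and 81.8% ± 2.47.

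Among genes of germ cells, Asz1, a piRNA pathway gene, held a member at 96.7% ± 0.903 in Control and 96.2% ± 0.287 in CSDS. Mei1, needed in meiosis, held one at 96.3% ± 1.64 and 97.3% ± 1.37, and Kit, the receptor of differentiating spermatogonia, one at 89.8% ± 0.679 and 90.8% ± 1.11. Of the DNA methylation machinery, Tet3, which oxidises methylcytosine, held 2 members and Uhrf1, which guides DNMT1, held 1. The Tet3 member at chr6:83368001-83368500 stood at 94.4%, 96.3% and 93.2% in Control and at 91.7%, 91.7% and 92.4% in CSDS. The groups did not overlap there, and its adjusted p was 0.252 in the moderated quasi-binomial F test (limma). The other Tet3 member stood at 96.4%, 98.8% and 97.7% in Control and at 98.5%, 97.7% and 95.8% in CSDS, and there the groups overlapped. Kcnq1, the host of a maternally methylated imprint control region, held 3 members between 90.6% and 97.2% in every library.

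The mean level of the members was 92.7%, 92.5% and 92.5% in Control and 92.1%, 91.5% and 91.4% in CSDS. All 3 CSDS libraries were below all 3 Control libraries, and the means were 92.6% ± 0.0978 and 91.7% ± 0.361 (SD, n = 3). The difference of -0.888 percentage points is a description, since Control values chose the members. It was -0.737 for the 1808 dense tiles chosen by a CSDS level of 80% or more and -0.814 for the 1833 chosen on the mean of all 6 libraries. It was -1.09 without CSDS replicate 1, -0.816 without replicate 2 and -0.755 without replicate 3. Correcting each library for its mitochondrial share made it -0.641, from 91.8% ± 0.137 to 91.2% ± 0.176.

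Sparse tiles of 3 to 19 cytosines at 80% or more in Control differed by -0.888 too, from 93.2% ± 0.213 to 92.3% ± 0.207. Dense tiles under 20% went from 11.9% ± 0.267 to 8.24% ± 2.52, and there CSDS replicate 1, at 11.1%, stood near Control while replicates 2 and 3 were at 6.50% and 7.08%. Corrected for the mitochondrial share, dense tiles under 20% went from 2.91% ± 0.911 to 2.58% ± 0.351, a difference of -0.335. Sparse methylated tiles differed by -0.667 after that correction. The members' CSDS libraries were closer together than those of the unmethylated dense tiles, at an SD of 0.361 against 2.52. With the correction these SDs were 0.176 and 0.351. The difference between these classes was not tested.

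The members are also described in bands of Control level, the value that chose them. The 153 members at 80% to 85% went from 83.1%, 83.0% and 82.5% to 81.8%, 81.0% and 79.96%, a difference of -1.94. The 690 members at 95% or more went from 96.4%, 96.2% and 96.3% to 95.9%, 95.5% and 95.7%, a difference of -0.621. CSDS was lower in every library in both bands. Members at 85% to 90% and at 90% to 95% lay between, at -1.17 and -0.813. In the same 2 outer bands of the mean of all 6 libraries the difference was -1.86 over 171 dense tiles and -0.391 over 630, and in those of the CSDS level it was -1.71 over 179 and -0.134 over 571. The bands of the mean and of CSDS were added after the data were seen.

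**Figure D4:**
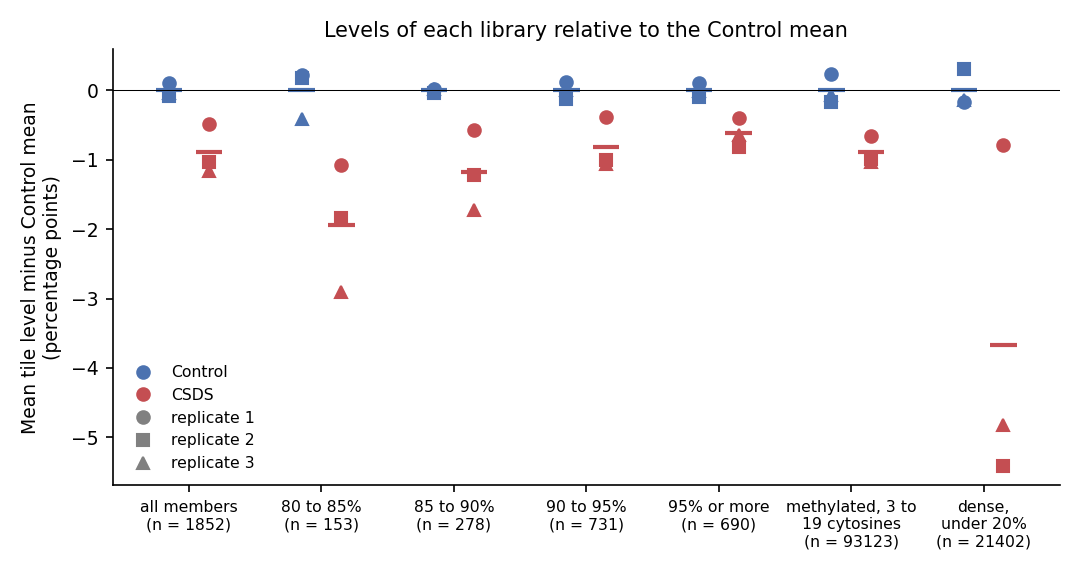
Mean tile level of each library minus the Control mean (percentage points) for all members, for members in 4 bands of Control level, for sparse methylated tiles and for dense tiles under 20%; symbols are libraries and bars group means. All CSDS symbols lie below 0, with a mean difference of -0.888 points for the members and -3.67 for dense tiles under 20%, where CSDS replicate 1 stands apart from the other 2. The levels shown are not corrected for the mitochondrial share. With that correction the 2 differences were -0.641 and -0.335.

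A tile counted as called when its group means were 10 or more points apart and its adjusted p was under 0.05. No member was called in the quasi-binomial F test over 158836 tiles, in which 0.0% of all tiles were called. The lowest adjusted p of members in this test, 0.179, was shared by 26 of them and was also the lowest over all tiles. How many of all tiles shared it is not given here, so this value does not set these members apart. At an unadjusted p under 0.05 there were 185 members (9.99%), beside 15.7% of all tiles. Of these members 175 were lower in CSDS, beside 15.3% of all tiles, and 10 were higher, beside 0.385%. These counts depend on the tiles fitted together. In the same test on dense tiles alone, 27 members (1.46%) had an unadjusted p under 0.05, beside 38.6% of the 24433 dense tiles. With limma on logit levels and with edgeR, 69 and 136 members (3.73% and 7.34%) had an unadjusted p under 0.05, beside 9.24% and 12.6% of all tiles, and none was called.

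Of the members, 1311 (70.8%) had a lower CSDS mean, beside 73.8% of all tiles. With each library corrected for its mitochondrial share, 1179 members (63.7%) were lower, beside 58.6% of all tiles. The counts by p-value above and the counts below were made without this correction. The groups did not overlap in 258 members that were lower (13.9%, beside 16.3% of all tiles) and in 30 that were higher (1.62%, beside 1.82%). A difference of at least 10 points was found in 5 members, or 0.270% beside 1.69% of all tiles. In all, 56 members had a CSDS mean under 80%, 7 were under 70% in a CSDS library, and none was under 60% in any library. Because Control values chose the members, they could cross the 80% limit only downward. In the other direction, 12 dense tiles were at 80% or more in the CSDS mean but not in Control.

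The largest of the named differences lay at chr16:5536501-5537000, in no gene and 280545 bp from Eef2kmt, the nearest protein-coding gene. Over its 22 cytosines the level was 82.7%, 86.8% and 81.7% in Control and 61.8%, 74.3% and 68.1% in CSDS, a difference of -15.7. Every CSDS library was lower than every Control library, and the CSDS libraries were themselves 12.4 points apart.

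Within Itgbl1, the gene of an integrin beta-like protein, the tile at chr14:123671001-123671500 stood at 85.9%, 85.9% and 82.4% in Control and at 76.5%, 76.1% and 71.8% in CSDS. Within Nfic, a nuclear factor I transcription factor gene, that at chr10:81407501-81408000 stood at 85.7%, 93.7% and 89.5% and at 79.4%, 81.0% and 77.4%. The difference was -9.96 at Itgbl1 and -10.3 at Nfic, with no overlap of groups at either. At the tiles of Itgbl1, Nfic and near Eef2kmt the adjusted p in the moderated quasi-binomial F test (limma) was 0.179. Without CSDS replicate 1 these 3 tiles passed the call rule, at adjusted p values of 4.48e-04, 0.00174 and 6.55e-04 in the same test. In that fit 1.43% of all tiles were called. The CSDS libraries left had mitochondrial shares of 4.41% and 4.53%, against 8.84% to 10.04% in Control. Group and this share therefore cannot be told apart there.

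Other members with groups apart and lower in CSDS were within Nalcn, the gene of a sodium leak channel, at 89.5% ± 1.09 and 82.0% ± 1.39 (SD, n = 3), and within the kinase gene Taok3, at 88.6% ± 2.88 and 81.4% ± 1.14. The Nalcn and Itgbl1 tiles lie on the same chromosome, 14. A tile 10055 bp from Sult2a3, a sulfotransferase gene, stood at 84.9% ± 0.859 and 76.7% ± 1.95, one 62312 bp from Mis18a at 94.1% ± 0.952 and 89.5% ± 1.35, and the one within Sirt7 at 93.3% ± 0.491 and 88.7% ± 1.09. Each shared the adjusted p of 0.179 in the moderated quasi-binomial F test (limma).

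Members that were higher in CSDS differed by less. Within Furin, the gene of a proprotein-cleaving protease, the tile at chr7:80390501-80391000 stood at 88.4%, 89.3% and 89.8% in Control and at 92.3%, 94.1% and 91.9% in CSDS. Within E2f7, an E2F repressor gene of the cell cycle, the tile stood at 95.7%, 96.6% and 95.7% in Control and at 97.9%, 97.3% and 98.4% in CSDS. The groups were apart by 3.598 points at Furin and 1.86 at E2f7 between means. The largest such difference, 5.57, was at a tile 358482 bp from Tmem38b, at 87.1% ± 2.52 and 92.7% ± 2.58. The adjusted p in the moderated quasi-binomial F test (limma) was 0.191, 0.189 and 0.244 in that order. Tiles near Zfp945, Th and Olfr1463 and within Ephb4 and Tshr were higher by 2.73 to 3.499 points. The difference near Olfr1463 fell from 3.07 to 1.85 without Control replicate 2, and that at Tshr from 3.499 to 2.26 without CSDS replicate 2. With a coverage of at least 20 it was 1.90 at Tshr and 1.64 at Ephb4.

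**Figure D5:**
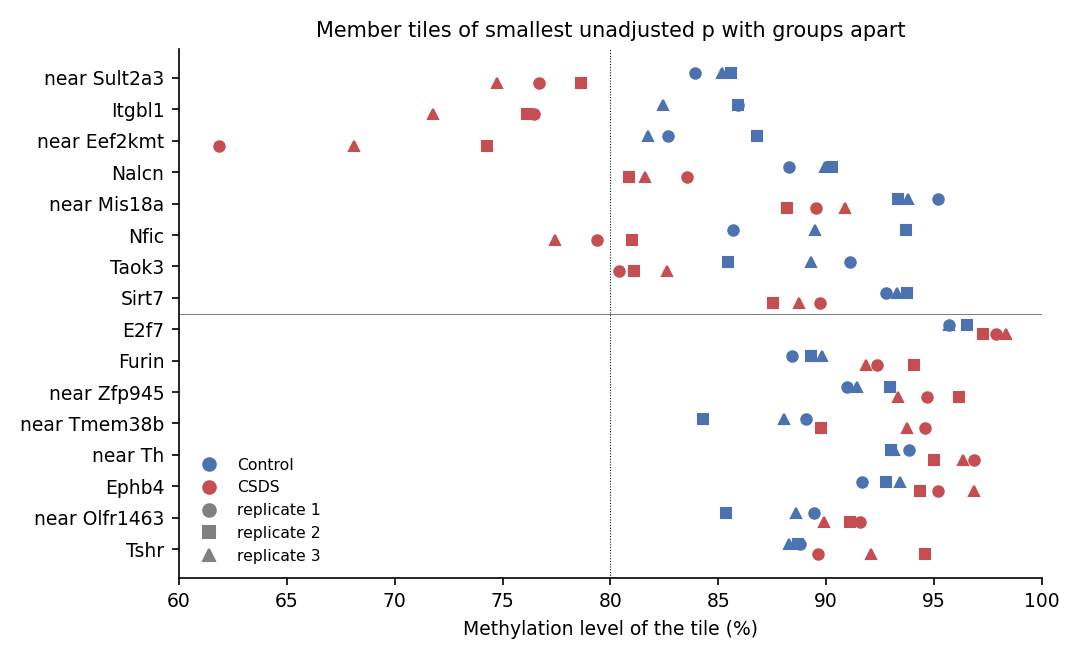
Methylation level (percent) in each of the 6 libraries of the 8 members lower and the 8 higher in CSDS with the smallest unadjusted p among members whose groups do not overlap; each symbol is 1 library, the dotted line is the 80% limit. The lower tiles reach down to 61.8% near Eef2kmt, and the higher ones differ by at most 5.57 points.

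Without CSDS replicate 1, 10 members (0.540%) were called, all lower in CSDS, beside 1.43% of all tiles (2279). As said above, group and mitochondrial share cannot be told apart in that fit. Apart from the 3 above, they lay near Anxa1, Kcnh8, 1700008P02Rik, 1700018B08Rik, Mctp2 and Crot and within Ppp1r37. Near Crot the tile stood at 87.8%, 88.7% and 87.3% in Control and at 92.9%, 78.7% and 75.6% in CSDS, so that replicate 1 lay above Control and the other 2 below. The difference there was -5.51 with all libraries, -10.7 without CSDS replicate 1, -3.66 without replicate 2 and -2.12 without replicate 3. Near Kcnh8 the CSDS mean without replicate 1 was 77.9% and replicate 1 itself 78.1%, against 90.6% in Control, so that replicate 1 lay beside the mean of the other 2.

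The widest spread over the CSDS libraries, 20.1 points, was near Ythdc2, at 91.8%, 86.3% and 71.7%, against 89.5%, 85.2% and 83.5% in Control. Brpf1, a gene of a histone acetyltransferase complex, had 93.2%, 95.9% and 79.96% in CSDS and 90.2%, 94.3% and 89.8% in Control. CSDS replicate 3 was the low library at both, and without it the differences changed from -2.80 to 2.97 near Ythdc2 and from -1.72 to 3.15 at Brpf1. Over all members the median range was 2.23 points in Control and 2.31 in CSDS.

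Coverage was uneven at the extremes. A tile within Sfi1 had 1726 reads per cytosine, against a median of 58.4 over members, and stood at 86.2% ± 0.186 in Control and 85.1% ± 0.808 in CSDS. Tiles near Gm32719 and Gm38510 had 298 and 214. A tile within Kdm2a had the fewest, 19.7, and stood at 97.9% ± 2.88 and 97.5% ± 0.361.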

How the data were processed

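DNA of male germ cells was assayed by RRBS in 3 libraries labelled Control and 3 labelled CSDS in their titles. Per the submitters' processing notes, the authors used Trim Galore 0.5.0, Bismark 0.20.0 and GRCm38. Removal of duplicate reads, strand-end trimming and the conversion rate are not given in the sources used here. Per the file headers, each deposited table gives a cytosine's position and strand, the read count that covers it, and the percent of reads with C and with T. Percent times coverage gave whole methylated counts to within 1e-06.

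Cytosines were grouped in 500 bp tiles, strands kept apart and coordinates 1-based. Tiles with at least 3 cytosines (158836) were fitted by a logistic model per tile with group as its term. Pearson dispersion was moderated with limma 3.58.1 (R 4.3.3), with 1 as its lower bound. F tests were adjusted over all tiles by the Benjamini-Hochberg method. A call needed an adjusted p under 0.05 and a difference of at least 10 points. The procedure was tested on simulated data. Alternatives were other coverage, density and level limits, shifted tiles, merged strands, limma, edgeR 4.0.16, a mitochondrial correction, a replicate block and leaving out each library.

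The members and gene lists were chosen with earlier results of these data known. Named tiles are the 8 each way of smallest unadjusted p with groups apart, those of the 6 genes with most members, the 5 with most cytosines, 3 either side of the limit, up to 3 per gene list, the 3 of highest and of lowest coverage, the 5 of widest CSDS range, the 4 largest steps, and the longest runs; members at promoters are added. The tables for promoters and genes are RefSeq's, of GRCm38.p6. They hold no promoter on chromosome 18 and none of some genes elsewhere, such as Plec. All 54946 listed cytosines in 2000 sampled promoters fell on a CpG of the sequence. The counts of 1 gene list are not reported here. Sex chromosomes were left out, with 26 tiles on X and 2 on Y that met the same limits.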

Additional observations from a re-analysis of the deposited data

How the results depend on the processing

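The number of members followed the limits that define them. It was 809 with a coverage of at least 20, 5192 with at least 15 cytosines, 251 with at least 30, and 3874 with strands merged and at least 10 CpG sites, and it ran from 1850 to 1858 leaving out a library. The mean difference of the members kept its direction under every alternative run, from -1.02 with a limit of 70% to -0.641 with the mitochondrial correction, and from -1.09 to -0.755 leaving out a library. Calls were recomputed with a coverage of at least 20, the coverage cap, limma, edgeR, dense tiles alone, no minimum difference, the block and each library left out, and tiles were called in 1 of these only. The other alternatives gave no fit of their own, and the fit on summed reads cannot weight cytosines equally. Leaving out a library gave 0 to 2279 calls over all tiles and 0 to 10 among members, the highest without CSDS replicate 1. Of 352 alternatives for 32 tiles with a printed difference, 347 kept the direction. Of the 288 with a fit of their own, 5 gave a call. These 5 were without CSDS replicate 1, at -10.8 within Itgbl1, -12.5 near Eef2kmt, -10.4 within Nfic, -11.0 near Mctp2 and -10.7 near Crot. Near Ythdc2 a coverage of at least 20 turned the difference to 0.427. Leaving out a library, the difference ran from -7.06 to 2.97 near Ythdc2, from -4.82 to 3.15 at Brpf1, from -6.13 to 0.122 at Prm1 and from -0.311 to 1.49 at Fnbp1. The cause was not tested.

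Control and CSDS libraries of the same replicate number did not deviate together (r of -0.0422, -0.0529 and 0.00941 across all fitted tiles). Pairs of unlike number had r of -0.0138 to 0.0534. The labels give no pairing beyond the number. The deviations were taken from means of 3 libraries, so these values cannot decide whether a pairing exists. With the replicate block the mean difference was -0.888, 0 tiles were called, and 161 members (8.69%, beside 14.6% of all tiles) had an unadjusted p under 0.05. The block changed no other call. A tile under 10 points apart could not be called.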
